A study of Solanum lycopersicum with 15 samples.

Results

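The lines slexo1-hr6 and slexo1-hr7 are independent hairy root lines of tomato (Solanum lycopersicum, cultivar M82) in which CRISPR/Cas9 edited the same gene, SlEXO1 (Solyc09g011120). Their libraries are 6 of the 15 in the series, 3 for each line, and were chosen by the line numbers in the sample labels. The comparison asks which transcripts differ between roots that carry different alleles of 1 gene. Roots of slexo1-hr6 and slexo1-hr7 were set beside those of slscz-hr5 and slscz-hr12, which are edited in SlSCZ (Solyc04g078770), and beside wild-type M82 roots transformed with Rhizobium rhizogenes without a binary vector, with 3 libraries for each line. All roots, wild type included, were thus R. rhizogenes-transformed hairy roots, grown on medium with vitamins and 3% sucrose, and each library pooled the terminal 3 cm of 6 to 7 root tips. Each line derives from its own transformation, so the allele, the transformation event and the history of the culture cannot be told apart between slexo1-hr6 and slexo1-hr7. The study describes its samples as biological replicates, but all 3 libraries of a mutant line come from that 1 line.

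SlEXO1 encodes a C2H2 zinc finger transcription factor that is studied in the tomato root for its part in confining the polar lignin cap to the exodermis, the cell layer under the epidermis. The polar lignin cap is a lignin deposit on the outer face of exodermal cells, and it is a barrier distinct from the Casparian strip of the endodermis. A hairy root grows from a plant cell that has received bacterial T-DNA, and T-DNA integrates at sites that differ between lines. Cas9 cuts its target 3 bases before the end of the sequence matched by the guide, and repair of the cut leaves the edited allele.

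The 3 guides designed against SlEXO1, on chromosome 9, are shown because the alleles of slexo1-hr6 and slexo1-hr7 differ in how the cuts of guides 2 and 3 were repaired. The site of guide 1 was unedited in both lines.
guide 1: gcttttgctgaagatgcagc
guide 2: gagcacttggagggtgtata
guide 3: tgcctctggggttccaatta
In slexo1-hr6 each of the other 2 sites carried 1 inserted base at the expected cut, here in capitals.
slexo1-hr6 at guide 2: cacttggagggtgtTatatggccaccaag
slexo1-hr6 at guide 3: tctggggttccaaAttagggtttcttc
In slexo1-hr7 both sites read as junctions, with the foreign stretch in capitals.
slexo1-hr7 at guide 2: ggagggtgtTTGGAACCCCAGAG
slexo1-hr7 at guide 3: TGGTGGCCATATttagggtttctt
The 14 capitals of the first junction are the reverse complement of the bases just before the guide 3 cut. The 12 capitals of the second are the reverse complement of the bases just after the guide 2 cut in the slexo1-hr6 sequence. Both junctions thus read as the segment between the cuts in the opposite orientation. Both alleles are listed by the study with an early stop codon.

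QuantSeq libraries read the 3′ ends of polyadenylated transcripts. The estimated counts per library summed to 3883717 to 5884548 in slexo1-hr6 and to 3949343 to 6020912 in slexo1-hr7, within the range of 2726538 to 8942819 over all 15 libraries. Of 34688 genes in the table, 16189 had enough counts to be tested. CPM below are counts scaled to a common library size after TMM normalization, and a log2 difference is slexo1-hr6 minus slexo1-hr7. A gene was called where the adjusted p of limma-voom was at most 0.05 and the change at least 1.3-fold. The gene identifiers carry no names or functions in the sources used here, except for the genes the study names, so most genes below are given by identifier alone.

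SlEXO1 transcripts were scarce and did not separate the lines. The slexo1-hr6 libraries had 22, 18 and 24 counts of Solyc09g011120, and the slexo1-hr7 libraries had 25, 20 and 27 counts. The level was 4.13 ± 0.29 CPM in slexo1-hr6, 4.59 ± 1.49 CPM in slexo1-hr7 and 3.14 ± 1.27 CPM in wild type (SD, n = 3 each). The log2 difference of SlEXO1 was -0.06 ± 0.36 (SE, adjusted p = 0.989), with a 95% interval of -0.81 to 0.70. An edit that shifts the reading frame need not change the count of 3′ ends, so this level does not check which allele a library carried. The intact SlSCZ gene (Solyc04g078770) had 5.32 ± 1.07 CPM in slexo1-hr6 and 4.4 ± 1.03 CPM in slexo1-hr7 (SD, n = 3 each; adjusted p = 0.894). Of the 10 identifiers on each side of SlEXO1, 10 in all were tested and limma-voom called 0 of them, with log2 differences of -0.52 to 0.42 and a smallest adjusted p of 0.682.

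Few single genes were called between the lines, and those that were often differed by a large factor. With 3 libraries a line small differences are seldom called, so the large factors follow in part from the calling rule. In all 56 of 16189 tested genes were called, which is 0.346%. Of these, 24 were higher in slexo1-hr6 (0.148% of tested genes) and 32 were lower (0.198%). In the same fit, 17 genes (0.105%) were called between slscz-hr5 and slscz-hr12, the pair of lines edited in SlSCZ, 8 higher (0.0494%) and 9 lower (0.0556%) in slscz-hr5. That count was 4 to 9 without any 1 of 5 of the 6 slscz libraries (4 without slscz-hr5 replicate 3), 20 without slscz-hr12 replicate 4 and 40 in DESeq2, which called 66 between slexo1-hr6 and slexo1-hr7. At an unadjusted p under 0.05 there were 1164 genes between slexo1-hr6 and slexo1-hr7, 660 higher (4.08%) and 504 lower (3.11%) in slexo1-hr6. The median size of the log2 difference over the 56 called genes was 1.87, and 27 of them differed by at least 2 on the log2 scale, 8 higher and 19 lower in slexo1-hr6. The 3 libraries of one line lay outside the range of the other line for all 56, against 13.6% of all tested genes (6.94% higher and 6.66% lower in slexo1-hr6). The 56 genes were called from these same libraries, so this separation adds no support to the calls. The number of calls rested on every library. It was 22 without slexo1-hr6 replicate 2, 33 without slexo1-hr6 replicate 3 and 32 without slexo1-hr6 replicate 4. It was 32 without slexo1-hr7 replicate 2, 30 without slexo1-hr7 replicate 3 and 42 without slexo1-hr7 replicate 4, with no change of sign in any called gene.

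**Figure D1:**
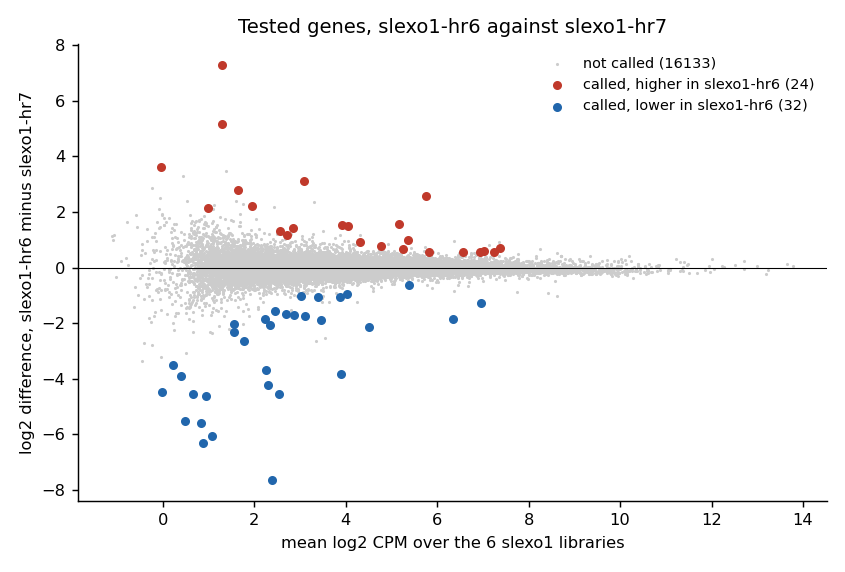
Log2 difference of each tested gene (slexo1-hr6 minus slexo1-hr7) against its mean log2 CPM over the 6 slexo1 libraries, 1 point per gene; red and blue points are the 24 and 32 genes called higher and lower in slexo1-hr6. Grey points are tested genes that were not called, and the lowest point, at -7.64, is Solyc09g056222.

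The largest differences came from genes that were nearly silent in 1 of the lines. Of the called genes, 10 had at most 3 counts in every slexo1-hr6 library and 3 had at most 3 counts in every slexo1-hr7 library. Most of them had low counts in the line that expressed them too, and the fold changes below are set against a floor of 3 counts over the 3 libraries of a line where that line had 0 counts. The 95% intervals on ratios cover counting error only.

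Solyc06g075675, on chromosome 6, was detected in slexo1-hr6 almost alone. It had 65, 63 and 101 counts in slexo1-hr6 and 0 in each slexo1-hr7 library, at least 80.1-fold higher in slexo1-hr6 (adjusted p = 1.25e-05). No library of the other 3 lines had more than 1 count of it. Its estimated counts in slexo1-hr6 were not whole numbers before rounding, which kallisto gives where reads fit more than 1 transcript.

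Transcripts seen in slexo1-hr7 almost alone were more numerous. Solyc09g056222 had 1, 2 and 0 counts in slexo1-hr6 and 188, 246 and 309 counts in slexo1-hr7, a ratio of 236 in favour of slexo1-hr7 (95% interval 80.4 to 1150; adjusted p = 6.20e-06). Every other library had at most 2 counts. Solyc06g017977 had 0 counts in each slexo1-hr6 library and 38, 52 and 38 counts in slexo1-hr7, at least 40.6-fold lower in slexo1-hr6 (adjusted p = 1.49e-05), and at most 1 count in any other library. Both genes thus had a level in slexo1-hr7 that no other line reached.

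Solyc12g021363 and Solyc04g018255 showed the same order of lines at lower levels. Solyc12g021363 had 0, 0 and 1 counts in slexo1-hr6 and 24, 38 and 49 counts in slexo1-hr7 (ratio 106, 95% interval 18.6 to 4210; adjusted p = 0.000158). Solyc04g018255 had 0, 1 and 2 counts in slexo1-hr6 and 30, 34 and 32 counts in slexo1-hr7 (ratio 30.5, 95% interval 10.1 to 150; adjusted p = 0.00714). The other 9 libraries had at most 4 counts of Solyc12g021363 and at most 5 of Solyc04g018255. The call of Solyc04g018255 was lost without any 1 of the slexo1-hr6 libraries (adjusted p = 0.06 to 0.0906).

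Other genes were lacking in 1 slexo1 line and present in wild type. Solyc09g064925 had 0, 0 and 1 counts in slexo1-hr6, 46, 52 and 54 counts in slexo1-hr7 and 24, 90 and 30 counts in wild type, and the 6 slscz libraries had 12 to 31 counts. The slexo1-hr6 libraries were below all 12 others, with a ratio of 145 to slexo1-hr7 (95% interval 25.6 to 5760; adjusted p = 0.000252). Solyc01g100390 followed the same order, with 5, 3 and 7 counts in slexo1-hr6, 156, 135 and 117 counts in slexo1-hr7, 83, 144 and 82 counts in wild type and 20 to 66 counts in the slscz lines. Its log2 difference was -4.55 ± 0.68 (SE, adjusted p = 0.00221), 23.4-fold lower in slexo1-hr6. Another such gene, Solyc02g021480, had 0 counts in each slexo1-hr6 library and 21, 23 and 28 counts in slexo1-hr7, at least 22.9-fold lower in slexo1-hr6 (adjusted p = 0.0122), but 1 wild-type library also had 0 counts, beside 24 and 9 in the others. Its call was lost in 5 of the 6 fits that left out 1 library, all but that without slexo1-hr7 replicate 3, with adjusted p of 0.0519 to 0.229.

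A gene nearby on chromosome 9 had the opposite order of the slexo1 lines. Solyc09g064750, which lies 12 tested genes before Solyc09g064925, had 52, 43 and 56 counts in slexo1-hr6, 0, 3 and 1 counts in slexo1-hr7 and 27, 84 and 51 counts in wild type. Its log2 difference was 5.16 ± 0.60 (SE, adjusted p = 0.000104), 35.8-fold higher in slexo1-hr6. The 6 slscz libraries had at most 1 count of it, so slexo1-hr6 stood with wild type and slexo1-hr7 with the slscz lines.

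Low counts of 3 further genes in this class make their folds imprecise. Solyc05g015847 had 3, 0 and 0 counts in slexo1-hr6, 19, 22 and 29 counts in slexo1-hr7 and 10, 27 and 33 counts in wild type (adjusted p = 0.0281). Solyc09g150135 had 0 counts in each slexo1-hr6 library and 5, 13 and 18 counts in slexo1-hr7, at least 11.4-fold lower in slexo1-hr6 (adjusted p = 0.00938). Solyc09g090385 was higher in slexo1-hr6, with 6, 9 and 10 counts against 1, 0 and 0 counts in slexo1-hr7 (ratio 26.2, 95% interval 4.30 to 1080; adjusted p = 0.0372). It also had 13, 14 and 11 counts in slscz-hr12, but 0 in each slscz-hr5 library. The call of Solyc09g090385 was lost in DESeq2 (adjusted p = 0.104) and when any 1 of the 6 libraries was left out (0.0698 to 0.421). The call of Solyc05g015847 was lost in 5 of those 6 fits, all but that without slexo1-hr7 replicate 3 (0.0698 to 0.242). The call of Solyc09g150135 was lost in 4, those without a slexo1-hr6 library and that without slexo1-hr7 replicate 4 (0.0525 to 0.176).

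**Figure D2:**
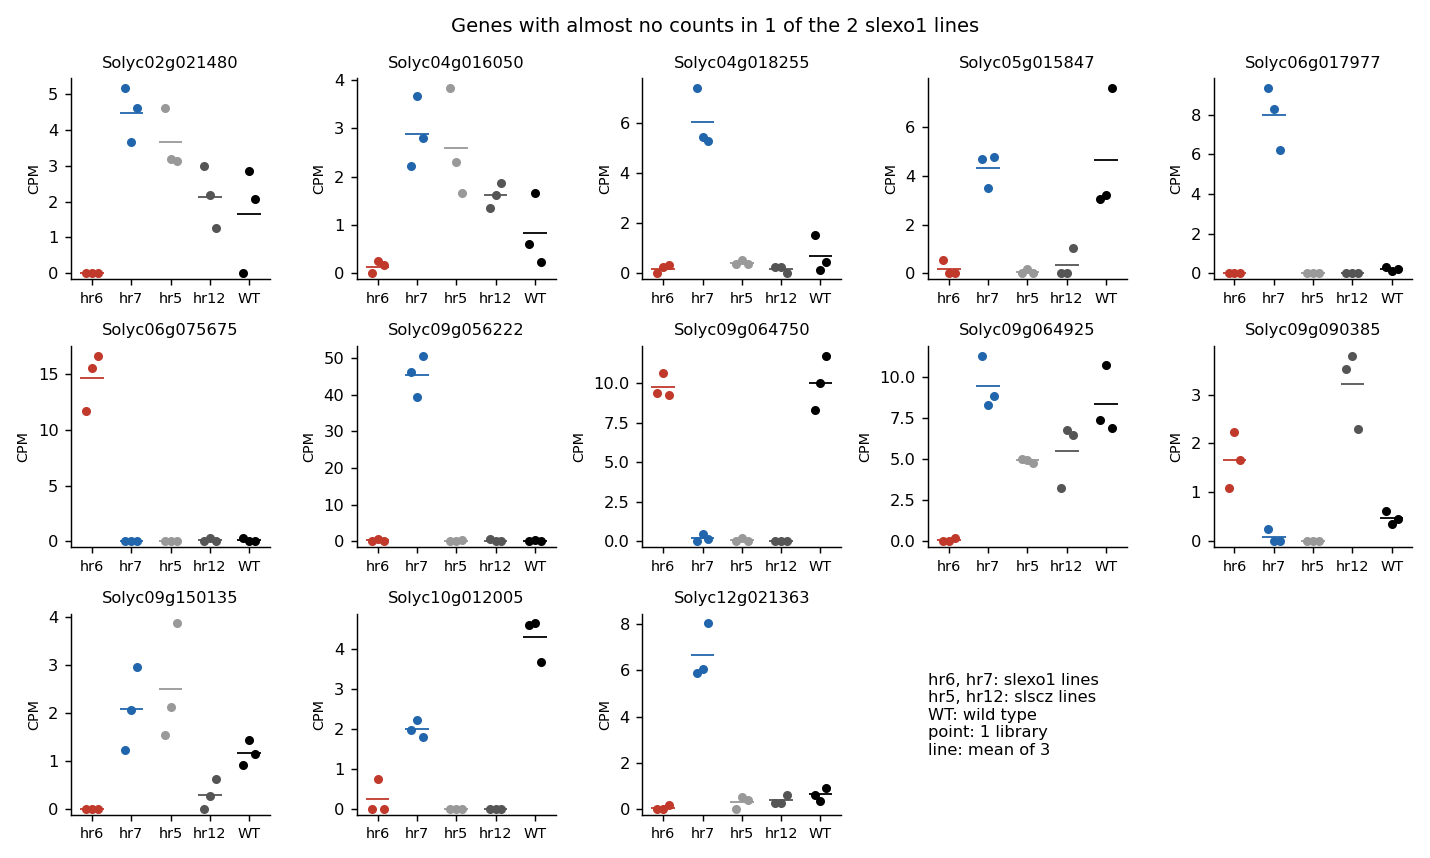
CPM of the 13 called genes with almost no counts in 1 slexo1 line, 1 panel per gene, in slexo1-hr6, slexo1-hr7, slscz-hr5, slscz-hr12 and wild type from left to right; points are libraries and short lines are means of 3. Solyc06g075675 has a mean of 14.7 CPM in slexo1-hr6 and Solyc09g056222 a mean of 45.4 CPM in slexo1-hr7, each near 0 in the other lines.

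A second set of genes was expressed in both lines at clearly different levels. Solyc07g007040 had the smallest adjusted p of all tested genes. It had 705, 539 and 823 counts in slexo1-hr6 and 75, 134 and 156 counts in slexo1-hr7, which gave 132 ± 4.64 CPM in slexo1-hr6 and 21.8 ± 3.59 CPM in slexo1-hr7 (SD, n = 3 each). The log2 difference was 2.59 ± 0.17 (SE, adjusted p = 5.65e-08), 6.00-fold higher in slexo1-hr6. Wild type had 31.7 ± 2.39 CPM, between the lines and nearer to slexo1-hr7 (SD, n = 3). The slscz lines differed in the same gene, with 35.3 ± 8.63 CPM in slscz-hr5 and 141 ± 27.4 CPM in slscz-hr12 (SD, n = 3 each). Solyc07g007040, Solyc01g081250 and Solyc09g090385 were the 3 genes called both between slexo1-hr6 and slexo1-hr7 and between slscz-hr5 and slscz-hr12, 3 of 56 and 3 of 17 calls. Solyc01g081250 was named after its values were seen.

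Solyc04g056713 had 151, 86 and 119 counts in slexo1-hr6 and 17, 16 and 11 counts in slexo1-hr7, a log2 difference of 3.10 ± 0.28 (SE, adjusted p = 4.44e-06). It averaged 22.7 ± 3.96 CPM in slexo1-hr6, 2.85 ± 1.22 CPM in slexo1-hr7 and 17.8 ± 1.21 CPM in wild type (SD, n = 3 each). The slexo1-hr6 level was above every other library and the slexo1-hr7 level was near the slscz lines, at 3.06 CPM in slscz-hr5 and 4.83 CPM in slscz-hr12. None of its slexo1 values was whole before rounding.

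Solyc01g005370 had 345, 242 and 356 counts in slexo1-hr6 and 111, 110 and 119 counts in slexo1-hr7, 2.92-fold higher in slexo1-hr6 (log2 difference 1.55 ± 0.15, SE; adjusted p = 6.20e-06). Its wild-type mean of 16.7 CPM was near the 21.5 CPM of slexo1-hr7 and below the 60.3 CPM of slexo1-hr6. Solyc06g033850 averaged 24.7 ± 4.50 CPM in slexo1-hr6, 8.84 ± 2.26 CPM in slexo1-hr7 and 12.5 ± 4.94 CPM in wild type (SD, n = 3 each; log2 difference 1.51 ± 0.23, SE; adjusted p = 0.00279), and was at 2 counts or fewer in every slscz library. Solyc12g027897 had 42, 29 and 43 counts in slexo1-hr6 and 8, 7 and 10 counts in slexo1-hr7, 4.67-fold higher in slexo1-hr6 (adjusted p = 0.00557). Wild type lay between the lines in this gene, at 4.59 CPM, with 7.28 CPM in slexo1-hr6 and 1.58 CPM in slexo1-hr7, and its call was lost without slexo1-hr7 replicate 3 (adjusted p = 0.0711). The last of the 10 largest rises were Solyc03g091010 and Solyc02g089150, 6.83-fold and 4.43-fold higher in slexo1-hr6 with adjusted p of 0.0367 and 0.0499, and with adjusted p up to 0.391 and 0.282 when 1 library was left out. The call of Solyc03g091010 was lost without any 1 library other than slexo1-hr6 replicate 4, and that of Solyc02g089150 without any 1 library. With all libraries kept, Solyc03g091010 lost its call under 1 of 11 alternatives and Solyc02g089150 under 6 of 11.

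In 2 genes of chromosome 1 slexo1-hr6 was low, as was wild type, and the other mutant lines were high. Solyc01g103340 had 26, 7 and 33 counts in slexo1-hr6, 218, 317 and 384 counts in slexo1-hr7, and 4, 7 and 6 counts in wild type. The 6 slscz libraries had 134 to 320 counts of it, so that slexo1-hr7 was at the level of the slscz lines (log2 difference -3.82 ± 0.30, SE; adjusted p = 7.13e-07). Solyc01g020526 had 6, 2 and 7 counts in slexo1-hr6, 70, 128 and 107 counts in slexo1-hr7, at most 2 counts in wild type and 33 to 76 counts in the slscz lines (log2 difference -4.21 ± 0.41, SE; adjusted p = 9.42e-06). Values before rounding were not whole for Solyc01g103340 in any slexo1 library, nor for Solyc01g020526 in slexo1-hr7.

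The 4 most abundant genes called lower include Solyc01g103340, given above. Solyc09g082690 had 167, 160 and 386 counts in slexo1-hr6 and 672, 885 and 985 counts in slexo1-hr7, with 44.5 ± 17.4 CPM in slexo1-hr6, 156 ± 13 CPM in slexo1-hr7 and 159 ± 18.7 CPM in wild type (SD, n = 3 each; adjusted p = 2.55e-05). It was 3.63-fold lower in slexo1-hr6, whose level was that of the slscz lines, at 46.4 CPM in slscz-hr5 and 36.1 CPM in slscz-hr12. Solyc03g008013 averaged 82.0 ± 26.6 CPM in slexo1-hr6, 195 ± 34.7 CPM in slexo1-hr7 and 149 ± 15.1 CPM in wild type (SD, n = 3 each; adjusted p = 0.0119). Solyc10g005080 averaged 33.5 ± 3.34 CPM in slexo1-hr6, 51.8 ± 2.42 CPM in slexo1-hr7 and 44.3 ± 4.12 CPM in wild type (SD, n = 3 each; adjusted p = 0.0385). The call of Solyc10g005080 was lost under 6 of 11 alternatives and without any 1 library, with adjusted p of 0.0536 to 0.247. That of Solyc03g008013 was lost without replicate 2 or 3 of either line, with adjusted p of 0.0637 to 0.107.

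Of the abundant genes that were higher, Solyc09g091210 averaged 182 ± 5.90 CPM in slexo1-hr6, 125 ± 17.7 CPM in slexo1-hr7 and 327 ± 19.2 CPM in wild type (SD, n = 3 each; adjusted p = 0.0281). Solyc03g080180 averaged 149 ± 13.6 CPM in slexo1-hr6, 101 ± 7.37 CPM in slexo1-hr7 and 152 ± 18.7 CPM in wild type (SD, n = 3 each; adjusted p = 0.0440). The call of Solyc03g080180 was lost without any 1 library (adjusted p = 0.0698 to 0.303) and that of Solyc09g091210 without any but slexo1-hr7 replicate 4 (0.0703 to 0.269). The other abundant genes called higher, Solyc01g102310 and Solyc01g095590, belong to a stretch of chromosome 1 that is described further on.

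By nearest mean, wild type was divided between the lines. The wild-type mean lay nearer to slexo1-hr7 for 31 of the 56 called genes and nearer to slexo1-hr6 for 25. In the contrasts with wild type, 29 of the 56 were called in slexo1-hr6 only and 18 in slexo1-hr7 only, with 3 called in both and 6 in neither. Over all tested genes, 8.94% were called against wild type in slexo1-hr6 and 4.8% in slexo1-hr7. For 29 of the 56 (51.8%) the 3 libraries of 1 slexo1 line lay beyond all 12 other libraries, which held for 4.4% of all tested genes. In 11 called genes slexo1-hr6 was above the 12 others and in 3 below them, and in 12 genes slexo1-hr7 was above and in 4 below, with 1 gene counted for both lines. Over all tested genes slexo1-hr6 was above the 12 others in 1.72% and below them in 1.58%. For slexo1-hr7 these shares were lower, at 0.537% above and 0.581% below. The counts of called genes come from the same libraries as the calls and carry no test. Values that were not whole were found in 17 of the called genes (30.4%) and in 12.4% of all tested genes, and the part of shared reads in the calls was not tested. Besides the genes marked above, the 17 include Solyc09g082690 and Solyc03g091010, each in all 6 slexo1 libraries. They also include Solyc05g015847 in 5 of these libraries, Solyc09g056222 in 2, and Solyc09g064750 and Solyc12g021363 in 1 each.

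Against wild type, the lines are given side by side because they share the 3 wild-type libraries. In slexo1-hr6, 1447 genes (8.94%) were called against wild type, 684 higher (4.23%) and 763 lower (4.71%), and in slexo1-hr7, 777 genes (4.8%), 308 higher (1.9%) and 469 lower (2.9%). For Solyc07g007040 the log2 differences from wild type were 2.04 in slexo1-hr6 (adjusted p = 1.26e-06) and -0.55 in slexo1-hr7 (adjusted p = 0.101). For Solyc04g056713 they were 0.35 in slexo1-hr6 (adjusted p = 0.187) and -2.75 in slexo1-hr7 (adjusted p = 1.09e-05). For Solyc09g082690 they were -1.89 in slexo1-hr6 (adjusted p = 1.76e-05) and -0.03 in slexo1-hr7 (adjusted p = 0.953). For Solyc01g103340 they were 1.79 in slexo1-hr6 (adjusted p = 0.0391) and 5.61 in slexo1-hr7 (adjusted p = 8.46e-07). The direct comparison of the lines, given above for each gene, is the test of these differences. Solyc09g091210 was lower than wild type in both lines, with log2 differences of -0.84 in slexo1-hr6 (adjusted p = 6.69e-05) and -1.39 in slexo1-hr7 (adjusted p = 6.50e-07).

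The genes that the study names as root barrier regulators were not among the calls. Of 9 endodermal regulators 7 were tested, and limma-voom called 0 of them, where 0.346% of all tested genes were called. SlMYB36 (Solyc07g006750), a homologue of the Arabidopsis transcription factor required for the Casparian strip, had 80, 50 and 93 counts in slexo1-hr6 and 64, 73 and 61 counts in slexo1-hr7 (log2 difference 0.25 ± 0.19, SE; adjusted p = 0.844). SlCASP2 (Solyc10g083250) and SlCASP3 (Solyc09g010200), homologues of the membrane proteins that mark the Casparian strip domain, had log2 differences of 0.82 ± 0.36 and 0.49 ± 0.20 (SE; adjusted p = 0.641 and 0.615), and were the 2 genes of the list at an unadjusted p under 0.05, a level reached by 7.19% of all tested genes. SlSGN3 (Solyc05g007230), a homologue of the receptor kinase that monitors strip integrity in Arabidopsis, had a log2 difference of 0.02 ± 0.20 (SE, adjusted p = 0.992). The median over the 7 genes was 0.22, against -0.00 over all tested genes.

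Of 20 transcription factors mutated in the hairy root screen 15 were tested, and limma-voom called 0 (0.346% of all tested genes), with 1 at an unadjusted p under 0.05 (7.19% of all tested genes), SlSHN1 (Solyc01g005630; log2 difference 0.54 ± 0.21, SE; adjusted p = 0.562). Their median log2 difference was -0.01. The exodermis-enriched SlNAC041 (Solyc01g009860) had 785, 568 and 723 counts in slexo1-hr6 and 619, 808 and 779 counts in slexo1-hr7 (log2 difference -0.02 ± 0.11, SE; adjusted p = 0.984). The 5 endodermis markers summed to 77.5 to 98.1 CPM in slexo1-hr6 and to 63.3 to 80.5 CPM in slexo1-hr7, and the 4 exodermis markers to 130 to 153 CPM in slexo1-hr6 and to 136 to 158 CPM in slexo1-hr7. Both pairs of ranges overlapped. Within the endodermis sum, SlCASP3 and SlCASP2 did not overlap and were higher in slexo1-hr6, as were 6.94% of all tested genes. SlCASP3 was at 32.4 to 42.5 CPM in slexo1-hr6 and 23.9 to 29.8 CPM in slexo1-hr7. SlCASP2 was at 3.24 to 4.95 CPM in slexo1-hr6 and 1.28 to 2.95 CPM in slexo1-hr7. The ranges of SlMYB36, SlCASP1 (Solyc06g074230) and SlSGN3 overlapped. The exodermis sum was mostly SlNAC041, at 119 to 141 CPM in slexo1-hr6 and 128 to 152 CPM in slexo1-hr7. SlSHN1 did not overlap and was higher in slexo1-hr6, at 8.59 to 9.72 CPM against 4.68 to 7.34 CPM in slexo1-hr7. Of the defining markers only SlMYB107-a (Solyc02g079280) was at 0 in all 6 libraries. In bulk roots, fewer cells of a type and less RNA per cell cannot be told apart.

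Called genes did not lie in runs. None of the 56 had a called gene as its next or previous tested gene in the order of the identifiers, by limma-voom, by edgeR or by DESeq2, and the count was also 0 when all identifiers of the table counted as neighbours. Only 0.148% of tested genes were called higher and 0.198% lower in slexo1-hr6. At such shares scattered calls would seldom be neighbours, so the 0 says little about position. The 17 genes called between slscz-hr5 and slscz-hr12 also had 0 called neighbours of the same direction. The called genes were spread over all 12 chromosomes, with 11 of 2109 tested genes on chromosome 1 (0.522%), 9 of 1169 on chromosome 9 (0.77%), 8 of 1389 on chromosome 6 (0.576%) and 1 of 1075 on chromosome 11 (0.093%). In 5 places 2 called genes were at most 20 tested genes apart. In 4 of these places the genes differed in opposite directions, as with Solyc09g064750 and Solyc09g064925, or with Solyc12g021363 and Solyc12g027897, which were 6 tested genes apart. Of the 111 tested genes directly beside a called gene, 5 (4.5%) differed in the same direction at an unadjusted p under 0.05, beside 4.08% of all tested genes higher and 3.11% lower in slexo1-hr6 at that level.

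Neighbouring genes did move together once the small differences of uncalled genes were read along a chromosome. The tested genes of each chromosome were ordered by identifier, and the stretch that best split a chromosome into 2 levels by least squares was sought, with single genes limited to 1 in size. On chromosome 1 this was the stretch from Solyc01g094060 to Solyc01g102350, which held 475 tested genes with a mean log2 difference of 0.27, against -0.02 over the rest of the chromosome. The sum of squares it explained was 30.1, while the best stretch of any of the other 11 chromosomes explained at most 2.46. Between slscz-hr5 and slscz-hr12 the best stretch on any chromosome explained at most 1.995. As the stretch was chosen from these values, its numbers are a description without a test.

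Within the stretch 426 of the 475 genes (89.7%) were higher in slexo1-hr6, against 48.1% of all other tested genes. The median log2 difference was 0.26, with quartiles of 0.14 and 0.40, a 1.20-fold higher level at the median. The shift was even along the stretch, since the first and second parts of equal size had medians of 0.26 and 0.26, and 19 consecutive tiles of 25 genes had medians of 0.20 to 0.38, with 80.0% to 96.0% of genes higher in slexo1-hr6. It was also alike across expression levels. The medians were 0.28 in the lowest, 0.29 in the middle and 0.24 in the highest of 3 equal classes by mean CPM. Among the 72 genes of at least 100 CPM, 95.8% were higher in slexo1-hr6, against 35.7% of the other genes at that level.

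**Figure D3:**
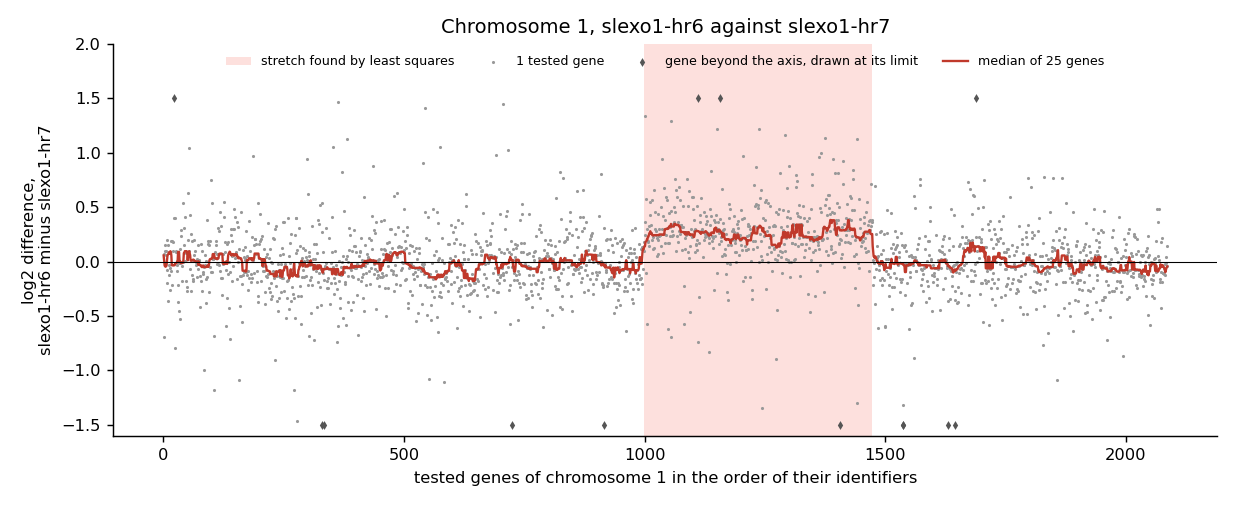
Log2 difference (slexo1-hr6 minus slexo1-hr7) of the 2086 tested genes of chromosome 1 in identifier order, with the running median of 25 genes in red and the stretch shaded; genes beyond 1.5 in size are drawn as diamonds at the limit. The red line stands at about 0 outside the shaded 475 genes and near the median of 0.26 inside them. Both edges were placed by least squares on these same values.

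Both edges were placed by least squares on these same differences, so a change of level at them follows in part from that choice. Leaving out 1 slexo1 library gave a best stretch of 481 to 487 genes, against 475. The 10 tested genes before the stretch had log2 differences of -0.20 to 0.13, and the 10 genes from Solyc01g094060 on had 8 positive values. At the other end, 9 of the last 10 genes up to Solyc01g102350 were positive, and the 10 genes that followed, from Solyc01g102370 on, had 5 positive values. Solyc01g102290 had 495 CPM in slexo1-hr6 and 405 CPM in slexo1-hr7, and Solyc01g102310 had 213 CPM in slexo1-hr6 and 132 CPM in slexo1-hr7, near the end of the stretch. Just past it, Solyc01g102410 had 182 CPM in slexo1-hr6 and 184 CPM in slexo1-hr7.

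Most genes of the stretch were too close between the lines to be called alone. Limma-voom called 4 of them higher in slexo1-hr6 (0.842%, against 0.127% of all other tested genes), and 1 lower, Solyc01g100390. At an unadjusted p under 0.05, 149 (31.4%) were higher and 2 lower in slexo1-hr6, against 3.25% and 3.19% of the other genes. Of the 157 tested genes that sat next to another gene at an unadjusted p under 0.05 in the same direction, 74 were in the stretch, as were 12 of the 15 runs of 3 or more. The stretch held 475 of the 16189 tested genes. It was chosen from these same differences, so the gathering of such genes in it follows in part from that choice.

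The 4 genes called higher all differed by more than the median of the stretch. This follows from the calling rule, since the fold required for a call is above the fold at that median. Solyc01g095590 had 167, 139 and 175 CPM in slexo1-hr6 and 87.1, 114 and 117 CPM in slexo1-hr7 (log2 difference 0.60 ± 0.12, SE; adjusted p = 0.0303). Solyc01g096500 had 48.3, 46.1 and 47.4 CPM in slexo1-hr6 and 31.3, 29.4 and 29.2 CPM in slexo1-hr7 (adjusted p = 0.0113), and Solyc01g097920 had 72.8, 65.9 and 65.4 CPM in slexo1-hr6 and 46.5, 48.8 and 42.8 CPM in slexo1-hr7 (adjusted p = 0.0440). In these 3 genes all slexo1-hr6 libraries were above the 12 others. Solyc01g102310 averaged 213 ± 22.1 CPM in slexo1-hr6 and 132 ± 31.5 CPM in slexo1-hr7 (SD, n = 3 each; adjusted p = 0.0372), but wild type had 180 CPM and the slscz lines 288 and 274 CPM. The call of Solyc01g095590 was lost without replicate 2 or 4 of slexo1-hr6 or replicate 2 or 3 of slexo1-hr7 (adjusted p = 0.0711 to 0.176). That of Solyc01g102310 was lost without any 1 library but slexo1-hr7 replicate 4 (0.1 to 0.302). Over 17 alternatives, Solyc01g096500 was called in 14 and Solyc01g097920 in 6. Solyc01g096500 and Solyc01g097920 fall outside the rule for named genes and were chosen after their values were seen.

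Of the 10 most abundant genes of the stretch, 9 had a positive log2 difference and limma-voom called 0. Solyc01g099770 had 7172, 7303 and 7213 CPM in slexo1-hr6 and 6740, 5884 and 5829 CPM in slexo1-hr7, a log2 difference of 0.24 (adjusted p = 0.437). Solyc01g099900 had 2679, 2674 and 3304 CPM in slexo1-hr6 and 2416, 2502 and 2608 CPM in slexo1-hr7, a log2 difference of 0.20 (adjusted p = 0.629). Solyc01g100380 had 2397, 2602 and 3221 CPM in slexo1-hr6 and 2155, 2384 and 2516 CPM in slexo1-hr7, a log2 difference of 0.21 (adjusted p = 0.697). The slexo1 lines did not overlap in Solyc01g099770 and Solyc01g099900 and overlapped in Solyc01g100380, and the wild-type libraries, such as 6333, 8100 and 7411 CPM of Solyc01g099770, overlapped those of slexo1-hr6 in these genes. Among genes the study names, SlMGP (Solyc01g099340), a zinc finger transcription factor, lies in the stretch with a log2 difference of 0.22 ± 0.20, and SlATHB-5 (Solyc01g096320), a homeodomain transcription factor, with -0.26 ± 0.69 (SE; adjusted p = 0.876 and 0.968).

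Over the whole stretch the slexo1-hr6 libraries stood apart from those of every other line. Each library's median deviation from the mean of the 5 lines over the 475 genes was 0.24, 0.17 and 0.23 on the log2 scale in slexo1-hr6 and -0.04, -0.07 and -0.06 in slexo1-hr7. It was -0.05 to -0.02 in the 6 slscz libraries and -0.04 to -0.02 in wild type. The 3 slexo1-hr6 libraries were above all 12 others. Over all other tested genes the medians of the 15 libraries were -0.01 to 0.04.

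In line-to-line terms, the median log2 difference over the stretch was 0.29 for slexo1-hr6 against wild type, 0.26 against slscz-hr5 and 0.25 against slscz-hr12. For slexo1-hr7 the same medians were 0.01 against wild type, -0.01 against slscz-hr5 and -0.01 against slscz-hr12. Against wild type the size varied with expression. For the 72 genes of at least 100 CPM the medians were 0.07 in slexo1-hr6 and -0.16 in slexo1-hr7, beside -0.12 and -0.08 for the other genes at that level. Each of the 9 pairings of a slexo1-hr6 with a slexo1-hr7 library gave a positive median, of 0.17 to 0.31, with 70.9% to 83.8% of genes higher in slexo1-hr6. Over the other tested genes the 9 medians were -0.02 to 0.01.

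**Figure D4:**
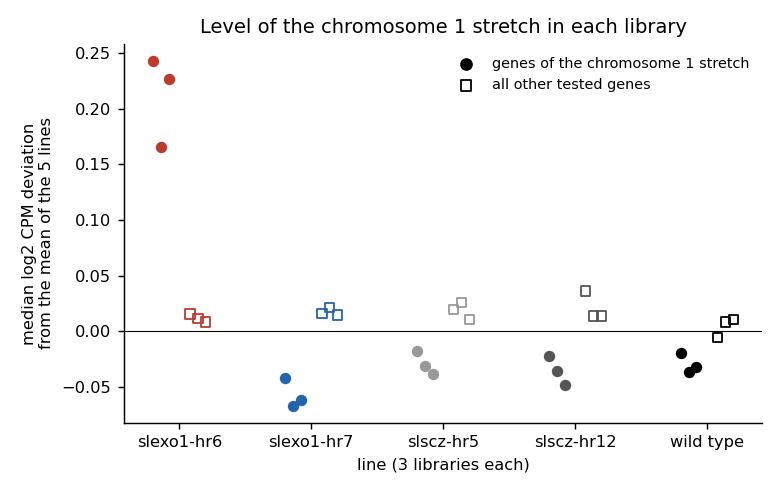
Median deviation of log2 CPM from the mean of the 5 lines in each library, for the 475 genes of the chromosome 1 stretch (filled circles) and for all other tested genes (open squares), with lines from left to right slexo1-hr6, slexo1-hr7, slscz-hr5, slscz-hr12 and wild type. The slexo1-hr6 circles stand at 0.17 to 0.24 and every other marker within 0.07 of 0.

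Between the 2 slexo1 lines, genes too low to be tested pointed the same way. The 205 untested genes with identifiers inside the stretch, 151 of them with any count, held 2.19 ± 0.10% of all counts of untested genes in slexo1-hr6 and 1.76 ± 0.13% in slexo1-hr7 (SD, n = 3 each), a ratio of 1.24. The slexo1-hr6 libraries had 2.10% to 2.29% and the slexo1-hr7 libraries 1.67% to 1.90%, without overlap. Wild type had 1.95 ± 0.24% (SD, n = 3), with 1 library at 2.21% inside the slexo1-hr6 range, as was 1 slscz-hr12 library at 2.14%. The means were 1.89% in slscz-hr5 and 1.90% in slscz-hr12, so slexo1-hr7 had the lowest mean of all lines.

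Windows of 50 consecutive tested genes gave the same picture over the genome. The 43 windows inside the stretch had medians of 0.20 to 0.32, and the windows that did not touch it had medians of -0.15 to 0.18. The highest window outside lay at the end of chromosome 12, from Solyc12g096870 to Solyc12g098830. Between slscz-hr5 and slscz-hr12 the window medians were -0.13 to 0.11. Whole chromosomes differed little. The slexo1-hr6 libraries minus the slexo1-hr7 libraries gave a median of 0.04 for chromosome 1, and -0.02 to 0.01 for chromosomes 2 to 12. The 204 unplaced tested genes gave a larger difference, 0.08, with an exact permutation p of 0.5. The exact two-sided permutation p for chromosome 1 was 0.1, the smallest that 3 against 3 libraries allow, and the adjusted p over 13 chromosomes, unplaced genes included, was 0.325. Chromosomes 2 and 6, at -0.02 and -0.01, had the same p of 0.1, so the test did not set chromosome 1 apart.

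**Figure D5:**
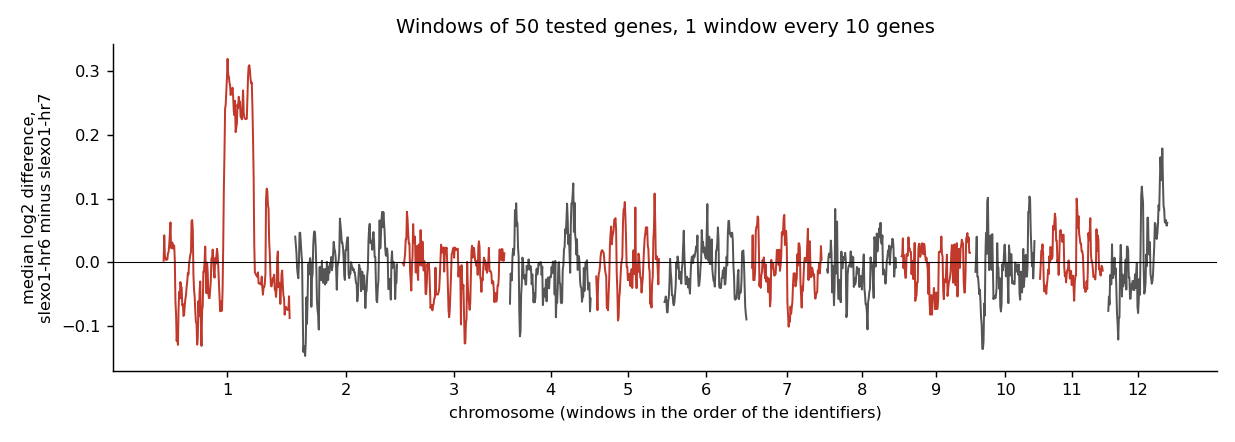
Median log2 difference (slexo1-hr6 minus slexo1-hr7) in windows of 50 tested genes, 1 window every 10 genes, along chromosomes 1 to 12 in identifier order; colours alternate by chromosome. The windows of the chromosome 1 stretch reach 0.32, and the next highest, on chromosome 12, reach 0.18.

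A separate region of chromosome 1 bears on the comparisons with wild type. Over 328 tested genes from Solyc01g005020 to Solyc01g020526 the median log2 difference from wild type was 0.40 in slexo1-hr6 and 0.40 in slexo1-hr7, against 0.02 and 0.02 over all other genes, while slexo1-hr6 minus slexo1-hr7 was -0.01. The wild-type libraries had median deviations of -0.31 to -0.27 there and the 12 mutant libraries 0.04 to 0.13. The region was the best least-squares stretch of chromosome 1 for each slexo1 line against wild type, so its numbers carry no test. Solyc01g005370 and Solyc01g020526, its last gene, lie in it. Their log2 differences from wild type were 1.87 and 1.67 in slexo1-hr6, and 0.33 and 5.87 in slexo1-hr7. The part of the regional shift in these differences was not tested, and that shift did not separate slexo1-hr6 from slexo1-hr7. DNA copy number was not measured in these samples, and its part in either region was not tested.

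Over all tested genes the distance between the lines was close to that between the slscz lines. The distance between the slexo1-hr6 and slexo1-hr7 means in log2 CPM was 41.7, and that between slscz-hr5 and slscz-hr12 was 41.7. Libraries of the same slexo1 line were 54.0 to 67.4 apart and libraries of different slexo1 lines 55.6 to 72.6 apart. The exact permutation p over the 10 ways to split the 6 libraries was 0.1, the smallest this design allows. For the slscz lines the exact permutation p was 0.5. Their libraries were farther apart within a line, at 61.6 to 80.3 (mean 71.7, against a mean of 58.9 within the slexo1 lines), and 71.5 on average between lines, so equal distances of the means do not show equal differences between lines.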

How the data were processed

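QuantSeq 3′ libraries of 15 hairy root samples were used, 3 for each of 5 lines. The authors trimmed reads with Trimmomatic and pseudo-aligned them with kallisto to the ITAG4.1 cDNA. The study's methods and the submitters' processing notes name different kallisto versions (the notes 0.46.2). They deposited estimated counts without normalization, which were rounded to whole counts here. The wild-type columns carry other numbers than the wild-type labels and were used as an unnumbered group. Genes were kept by filterByExpr (minimum count 10, total 15), scaled by TMM and fitted by line with limma-voom over all 15 libraries (R 4.3.3, limma 3.58.1, edgeR 4.0.16, DESeq2 1.42.0). P-values were two-sided with Benjamini-Hochberg adjustment over 16189 genes. Log2 CPM used a prior count of 2. None of the 34688 identifiers (0) matched the RefSeq gene table, so lists by gene description were not run. In the chromosome scan, single genes were limited to 1 on the log2 scale, stretches had at least 20 genes, and identifiers numbered 150000 or higher were left out. Named genes were SlEXO1, SlSCZ, the 10 largest rises and falls among called genes whose lines did not overlap, the 4 most abundant calls in each direction, genes of runs of 3 or more calls, and called genes named by the study. The members and lists were chosen with earlier results of these data known. The fits were tested on simulated counts. Alternatives covered tests, scaling, filters, weights, blocks, thinning and leaving out libraries. The spread between libraries may include technical as well as biological variation, and intervals and floors cover counting error only.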

Additional observations from a re-analysis of the deposited data

Results flagged for a closer look

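In 7 named genes all libraries of 1 slexo1 line lay above, and all of the other below, every wild-type library. None of them was called in both lines against wild type: of all 56 called genes, 0 were called against wild type in opposite directions by limma-voom. What was tested is the difference between slexo1-hr6 and slexo1-hr7, not opposite effects. Solyc07g007040 had 127 to 136 CPM in slexo1-hr6, 18.5 to 25.6 CPM in slexo1-hr7 and 29.8 to 34.4 CPM in wild type (log2 slexo1-hr6 minus slexo1-hr7 2.59). Solyc04g056713 had 19.7 to 27.2 CPM in slexo1-hr6, 1.81 to 4.18 CPM in slexo1-hr7 and 16.95 to 19.2 CPM in wild type (3.10). Solyc12g027897 had 7.10 to 7.56 CPM in slexo1-hr6, 1.12 to 1.97 CPM in slexo1-hr7 and 2.86 to 6.75 CPM in wild type (2.22). Solyc10g005080 had 30.1 to 36.7 CPM in slexo1-hr6, 48.98 to 53.4 CPM in slexo1-hr7 and 41.2 to 48.9 CPM in wild type (-0.64). The other 3 genes had few counts in wild type and in 1 of the slexo1 lines. Solyc09g090385 had 1.08 to 2.23 CPM in slexo1-hr6, 0 to 0.246 CPM in slexo1-hr7 and 0.358 to 0.614 CPM in wild type (3.61). Solyc06g017977 had 0 CPM in slexo1-hr6, 6.24 to 9.35 CPM in slexo1-hr7 and 0.119 to 0.307 CPM in wild type (-6.33), which is 1 count in each wild-type library. Solyc12g021363 had 0 to 0.165 CPM in slexo1-hr6, 5.91 to 8.04 CPM in slexo1-hr7 and 0.358 to 0.923 CPM in wild type (-5.59).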

How the results depend on the processing

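The 56 calls (24 higher and 32 lower in slexo1-hr6) became 101 with library quality weights (61 higher) and 35 with counts thinned to the smallest slexo1 library (14 higher, 21 lower). They were 54 in edgeR, 66 in DESeq2 and 72 without a filter on low counts (49 lower), and 13 genes were higher by a log2 fold change of at least 1.3. Leaving out 1 library gave 22 to 42 calls, 9 to 19 higher and 13 to 24 lower, each with fewer samples. Under 17 alternatives 18 genes were called in all, and no called gene changed sign. Between slscz-hr5 and slscz-hr12 the 17 calls became 40 in DESeq2, 28 with the replicate block and 4 to 20 without 1 library. Whether the replicate numbers pair the slexo1 samples was not settled. Deviations of same-numbered libraries correlated at 0.118, 0.00798 and 0.224 for numbers 2, 3 and 4. The highest correlations with another number were 0.0554, 0.0526 and -0.0618, lower for numbers 2 and 4 and higher for number 3. With the replicate block there were 51 calls over the 12 mutant libraries (45 of the 56 kept) and 72 over the 6 slexo1 libraries (48 kept). The numbers are those of the table's columns; the titles number the slexo1-hr7 libraries 1 lower, and that pairing was not fitted. Of the named genes, 17 were called in slexo1-hr6 against wild type and 11 to 15 without 1 library, with 11 without wild type replicate 3 as numbered in the table. The stretch kept a median of 0.25 to 0.29 and 481 to 487 genes without 1 library, and for slexo1-hr6 against wild type the best stretch was the other region, of 328 genes. Windows of 25 genes ranged over -0.20 to 0.38, with 0.26 as the highest outside the stretch, against 0.12 for windows of 100 genes and 0.10 for genes of at least 10 CPM. The distance between the slexo1-hr6 and slexo1-hr7 means was 26.1 over a set of the most variable genes, 111.3 at unit variance and 42.2 to 48.1 without 1 library. The cause of these changes was not tested. Genes with few counts are limited by depth, and 3 libraries a line cannot reach an exact permutation p below 0.1.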
